A study of Mus musculus with 15 samples.

Results

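FoxO factors are forkhead transcription factors that sit at the far end of insulin and growth factor signalling. The kinase AKT phosphorylates them and keeps them out of the nucleus, and mTOR, as the core of mTORC2, phosphorylates AKT. When signalling is low, FoxO factors enter the nucleus and switch on genes of quiescence, nutrient handling and oxidant defence, and they are known for keeping haematopoietic stem cells (HSC) quiescent. The 9 genes described here were given by name, out of 21887 protein-coding genes in the annotation. They were the factors Foxo1, Foxo3 and Foxo4 and 6 genes that FoxO factors are known to act on, namely Klf2, S1pr1, Ccng2, Irs2, Pdk4 and Txnip. All peaks in each gene body and 50 kb either side of it were examined.

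Open chromatin was mapped by ATAC-seq, in which a transposase cuts accessible DNA, in HSC sorted from adult mice that had received poly(I:C). This agent raises interferon, which turns on the Mx1 promoter that drives the Cre recombinase in every interferon-responsive cell type, not in HSC alone. WT control mice carried floxed mTOR alleles and no Cre (Mx1-Cre-/-;mTORflox/flox), KO mice the same alleles with Cre (Mx1-Cre+/-;mTORflox/flox), and KI mice Cre, 1 floxed mTOR allele and 1 knock-in allele (Mx1-Cre+/-;mTORflox/knockin). The labels do not give the change made in the knock-in allele, the sorting gate or the number of mice behind a library. There was 1 library per genotype, so every difference below is between 2 libraries, with no replicate check and no test. The WT and KO libraries were marked as re-analysed and the KI library was not, so KI and any batch cannot be told apart, and neither can Cre and the mutant alleles in comparisons with WT.

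The peak lists held 17316 peaks in WT, 19189 in KO and 28391 in KI, at an unknown read depth. By score the longer KI list did not reach lower than the others, since the lowest score was nearly the same in all 3 lists. The median score was 94.7 in WT, 87.2 in KO and 93.3 in KI. A peak found in KI alone may still lie below the calling threshold in the shorter lists, and the part of read depth in this was not tested. At equal list length (17316 peaks) the lowest score kept was 55.15 in KO and 77.95 in KI. Each peak has a score given by the authors, read as 10 times the negative log10 of its p-value, with 50 as the lowest value. Scores were ranked within a list, as the percent of its peaks that score at or below the peak (its percentile), and neither scores nor percentiles were read as changes between lists. Where a pair of values closes the parentheses after a peak, the first is its score and the second its percentile. Of 15 HSC marker genes, 10 had a peak within 1 kb of the start in WT, 6 in KO and 9 in KI. Over all protein-coding genes the shares were 45.5%, 45.3% and 52.7%. Of the 10 in WT, KO lacked 4, among them Cd34, Meis1 and Procr, against 10.3% of all genes with one in WT. KI lacked 1 of the 10, which was Procr again, against 2.93%. In all 3 lists 6 markers had a start peak, and 5 had no start peak in any list. Of 6 erythroid markers 0, 2 and 3 had one in WT, KO and KI, of 7 granulocyte and monocyte markers 0, 0 and 3, of 5 B lymphoid markers 1, 0 and 1, of 5 T and NK markers 1 in each, and of 4 endothelial and stromal markers 0, 1 and 1. The part of cell composition in the differences below was not tested, and in a bulk library fewer open cells and less opening per cell cannot be told apart.

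The sequence next to the start of 3 members is shown first, that of Txnip for its forkhead motif and those of Foxo3 and Pdk4 because the lists differed in whether a peak covered them. RefSeq promoter windows of GRCm38.p6, the assembly behind mm10, were matched for 7 of the 9 members, not for Foxo4 and S1pr1. Each window runs from 250 bases before the start to 50 after it, and the 250 bases before the start are printed, 5′ to 3′ on the gene's strand. Capitals mark the forkhead core TGTTTAC or its longer form TTGTTTAC, which contains it, searched on both strands (GTAAACA and GTAAACAA in reverse).
Txnip, chr3:96557707-96557956, plus strand: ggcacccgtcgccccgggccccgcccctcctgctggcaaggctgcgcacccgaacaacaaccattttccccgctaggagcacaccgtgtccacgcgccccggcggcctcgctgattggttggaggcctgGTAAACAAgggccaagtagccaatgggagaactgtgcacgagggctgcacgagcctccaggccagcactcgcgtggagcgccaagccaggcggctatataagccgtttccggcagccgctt
Foxo3, chr10:42276696-42276945, minus strand: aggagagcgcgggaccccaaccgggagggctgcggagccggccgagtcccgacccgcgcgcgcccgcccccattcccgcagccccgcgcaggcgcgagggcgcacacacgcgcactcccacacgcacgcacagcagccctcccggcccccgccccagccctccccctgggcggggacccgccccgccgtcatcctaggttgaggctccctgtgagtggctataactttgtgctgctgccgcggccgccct
Pdk4, chr6:5496279-5496528, minus strand: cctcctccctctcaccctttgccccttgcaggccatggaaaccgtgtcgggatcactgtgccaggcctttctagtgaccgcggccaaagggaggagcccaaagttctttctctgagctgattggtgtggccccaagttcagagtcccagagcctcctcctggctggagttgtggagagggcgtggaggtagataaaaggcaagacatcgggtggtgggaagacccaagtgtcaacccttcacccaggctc

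Txnip was the 1 member of 7 with the forkhead core in its window, in the longer form on the minus strand, from 121 to 114 bases before the start. Over 21263 promoter windows of protein-coding genes, 3.01% held TGTTTAC and 0.898% held TTGTTTAC. A related form, TGTTTTG on either strand, was searched after the sequences had been seen. It was found in Irs2 and Ccng2, and in 5.26% of all windows. These stretches show it in capitals, from 37 to 31 bases before the Irs2 start and from 16 to 10 before the Ccng2 start.
Irs2, chr8:11008933-11008992, minus strand: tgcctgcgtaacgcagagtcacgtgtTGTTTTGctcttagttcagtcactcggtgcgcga
Ccng2, chr5:93267513-93267572, plus strand: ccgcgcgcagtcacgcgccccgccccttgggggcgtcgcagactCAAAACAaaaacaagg
A match describes letters and does not show that a factor was bound there.

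Promoter windows of the members were rich in G and C, with 60.7% to 75.0% of their bases (median 65.3% against 56.3% over all windows). CpG pairs numbered 12 to 41, with a median of 31 against 13. Pdk4 had the lowest value of both, with 12 CpG pairs (percentile 49.1 of all windows), and Irs2 had the most CpG pairs, 41 (percentile 96.1). Peaks covered all 300 bases of the window in 6 of 7 members in each list, against 31.6% of all windows in WT, 29.0% in KO and 35.4% in KI. The exception was Foxo3 in WT, and Pdk4 in both KO and KI.

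**Figure D1:**
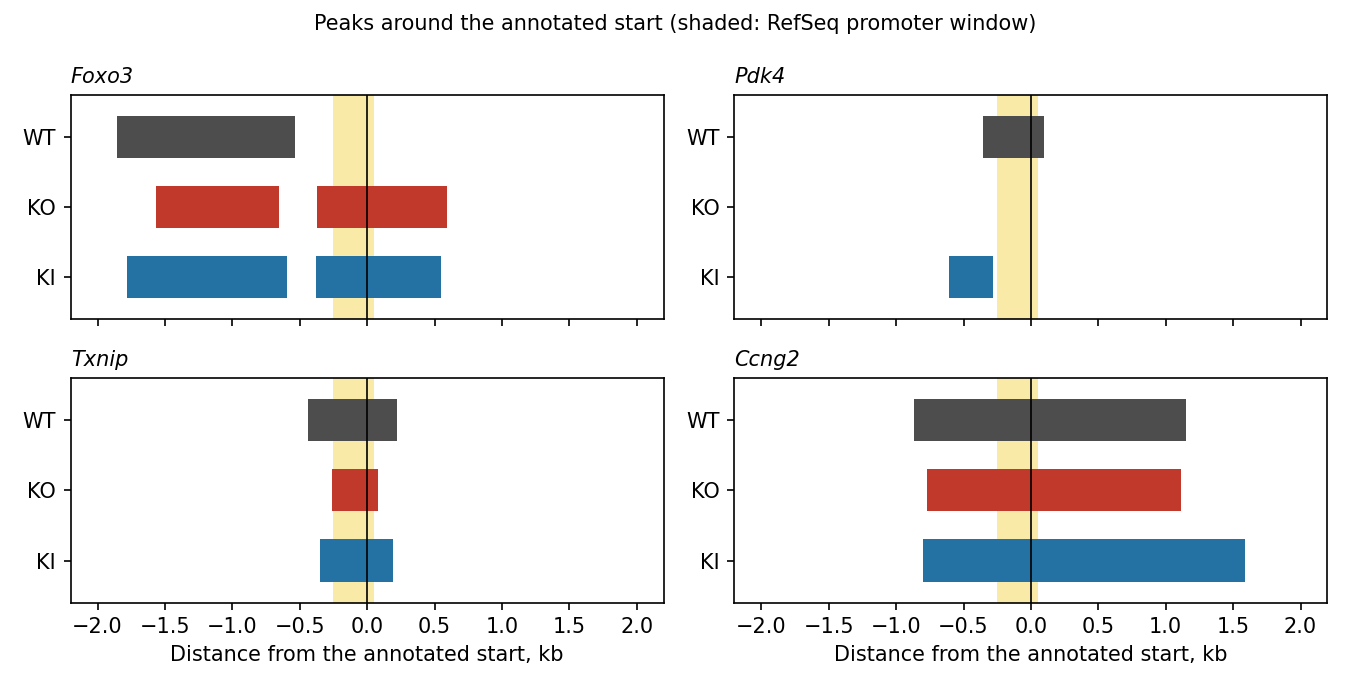
Peaks as bars around the annotated start of 4 members, with distance from the start in kb on the x axis (negative upstream) and 1 row per list; the shaded band is the RefSeq promoter window. The Foxo3 start lay under a KO and a KI peak and outside the WT peak, the Pdk4 window lay under the WT peak alone, and the Txnip and Ccng2 windows lay under a peak in all 3 lists.

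A peak within 1 kb of the start (of either annotated end for Foxo4 and S1pr1, whose strand was not in the tables used) was present at 8 of 9 members in WT, 7 in KO and 9 in KI. Over all protein-coding genes the same rule gave 45.5%, 45.3% and 52.7%. Of the 8 members with such a peak in WT, KO lacked 1 (Pdk4) and KI lacked none. The background for these calls was 10.3% of genes lost in KO and 2.93% in KI. Foxo4, the only member without one in WT, had one in KI and none in KO, against a background of 15.7% gained in KI and 8.36% in KO. With 1 gene in each, these counts cannot be set apart from the background.

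In every list the Ccng2 start peak ranked highest among the 9 genes, at percentiles 95.1 (WT), 95.4 (KO) and 95.2 (KI). Below it the order differed, with Klf2 (76.5) and Irs2 (76.0) next in WT, Irs2 (85.7) and Foxo1 (78.4) in KO, and Irs2 (92.5) and Klf2 (90.8) in KI. Last in line came Pdk4 in WT (26.8), Txnip in KO (8.03) and Pdk4 in KI (38.5). The median percentile over the members with a start peak was 68.9 in WT, 74.4 in KO and 78.4 in KI. Over all genes with one it was 69.6, 72.0 and 78.4, so the start peaks of these genes were of ordinary strength within their lists.

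**Figure D2:**
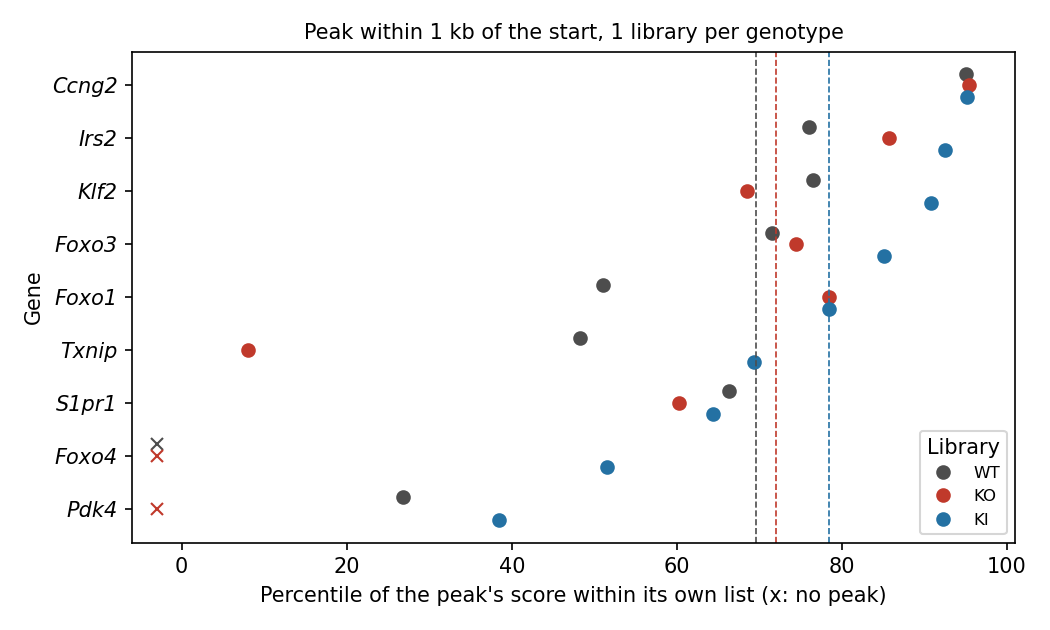
Percentile of each start peak's score within its own list (x axis) by gene (y axis), for the WT, KO and KI libraries; a cross marks no peak, and dashed lines give the median over all genes with a start peak (69.6, 72.0 and 78.4). Ccng2 sits at about 95 in all 3 lists, and Txnip in KO (8.03) is the lowest point.

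Foxo1, the factor best known for its role in insulin action and lymphocytes, spans 52268337 to 52350109 on chromosome 3 (plus strand, 81.8 kb). Its start lay under a peak in each list. The WT peak (52267840 to 52268635) was 796 bp wide with a score of 96.28 (percentile 51.0), the KO peak 728 bp with 150.44 (78.4) and the KI peak 805 bp with 185.64 (78.4). These 3 peaks overlapped over most of their length, by 695 bp between WT and KO and 786 bp between WT and KI. Further peaks lay inside the gene and were weak. At about 40 kb past the start KO had a peak of 371 bp (52308801 to 52309171, score 53.44, percentile 6.52), which overlapped a KI peak of 304 bp (52309088 to 52309391, 55.93, 10.5). KI alone had a peak of 301 bp at 74305 bp past the start (52342642 to 52342942, 64.42, 24.3). WT had nothing in this window besides the start peak.

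Foxo3, the FoxO factor on which HSC maintenance depends most, spans 42181845 to 42276695 on chromosome 10 (minus strand, 94.9 kb). WT had a single peak by the start and both mutants had a pair. The peak over the start was in KO (42276107 to 42277064, 958 bp, score 75.96, percentile 39.9) and in KI (42276148 to 42277072, 925 bp, 80.83, 41.4), and it covered the whole promoter window printed above. WT had no peak there. The nearest WT peak began 535 bp upstream of the start, 284 bp from the printed window and 165 bp from the KO peak.

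That upstream peak was shared by all 3 lists and was the stronger of the pair. It was 1319 bp wide in WT (42277230 to 42278548, score 144.18, percentile 71.5), 919 bp in KO (42277347 to 42278265, 136.74, 74.4) and 1191 bp in KI (42277290 to 42278480, 234.41, 85.1). Among KO peaks absent from WT the one over the start stood at percentile 74.6 by score, and among KI peaks absent from WT at 70.5. Both were kept at equal list length. Inside the gene, about 32 kb past the start, WT (546 bp, 85.11, 43.5), KO (350 bp, 81.86, 45.6) and KI (349 bp, 55.43, 9.52) shared a peak near 42244344. KI alone had one 31538 bp upstream (42308233 to 42308506, 274 bp, 71.76, 33.1).

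Foxo4, the smallest of the 3 factor genes, spans 101254261 to 101260873 on chromosome X. Neither WT nor KO had a peak at the gene, and the nearest lay at the neighbouring genes Snx12, a sorting nexin, and Med12, a Mediator subunit. KI had 1 at the lower-coordinate end (101253927 to 101254287, 361 bp, score 95.73, percentile 51.5). Of 9600 KI peaks that neither other list overlapped, 9.49% scored as high. It was one of 2 KI-only peaks of these windows that were kept at equal list length.

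Klf2, a transcription factor of quiescence and cell homing, spans 72319062 to 72321654 on chromosome 8 (plus strand). All 3 lists had a peak over the start. Its width was 726 bp in WT (72318602 to 72319327, score 161.0, percentile 76.5), 790 bp in KO (72318629 to 72319418, 119.34, 68.5) and 697 bp in KI (72318659 to 72319355, 293.3, 90.8). A pair of upstream peaks was also common to the lists. The nearer one, about 23 kb upstream, was 715 bp in WT (72295548 to 72296262, 108.61, 57.5), 281 bp in KO (72295639 to 72295919, 86.34, 49.3) and 527 bp in KI (72295578 to 72296104, 90.44, 48.3). The farther one lay about 37 kb upstream at the end of the long non-coding RNA gene Gm51537. In WT it was 520 bp wide (107.16, 56.8), in KO 414 bp (111.93, 65.0) and in KI 346 bp (81.66, 42.1).

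The other Klf2 peaks were in 1 list each and weak. WT had one 15066 bp upstream, beside the pseudogene Gm10282 (72303626 to 72303996, 371 bp, 56.56, 11.0). KO had one inside Eps15l1, an endocytic adaptor gene (72350001 to 72350401, 401 bp, 52.94, 5.68). KI had one 63 bp from the shared upstream WT peak (72295063 to 72295484, 422 bp, 64.45, 24.3) and one 690 bp past the gene (72322344 to 72322934, 591 bp, 50.84, 1.48).

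S1pr1, the receptor for sphingosine-1-phosphate that guides the exit of blood cells from tissue and a target of Klf2 as well, spans 115710433 to 115715055 on chromosome 3. Its window held 4 peaks in WT, 6 in KO and 8 in KI, the most of the 9 windows in both mutants. Of its 10 merged regions, 2 had a peak in all 3 lists. The peak at the higher-coordinate end was shared and wide, with 1419 bp in WT (115714574 to 115715992, score 129.33, percentile 66.3), 1820 bp in KO (115714146 to 115715965, 102.73, 60.3) and 1049 bp in KI (115714670 to 115715718, 126.36, 64.4). The KO width stood at percentile 99.4 of its list and the WT width at 97.0. Next to it KO (115715979 to 115716812, 834 bp, score 61.99) and KI (115715839 to 115716564, 726 bp, 72.33, 33.7) had a weaker peak, and the KO one ranked 14969 of 19189. Both of these overlapped the end of the wide WT peak.

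The strongest difference near S1pr1 was a peak about 27 kb below the gene that both mutants had and WT lacked. It was 821 bp wide in KO (115682332 to 115683152, score 99.75, percentile 58.4) and 805 bp in KI (115682299 to 115683103, 162.05, 73.8). Among peaks absent from WT its percentile was 93.1 in KO and 98.7 in KI. The nearest WT peak was 6246 bp from the KO one. Both were kept at equal list length, and at a score of 100 or more the KI peak alone remained, since the KO score fell just short.

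Between that site and the gene the lists had peaks at different places. At 20554 to 20697 bp below the gene all had a weak one, in WT of 338 bp (57.48, 12.5), in KO of 406 bp (52.29, 4.38) and in KI of 518 bp (61.67, 20.3). Then WT alone had a peak of 661 bp (115692404 to 115693064, 80.65, 39.8), KO alone one of 730 bp (115693172 to 115693901, 66.09, 28.4) and KI alone one of 456 bp (115695436 to 115695891, 63.94, 23.6). The WT and KO peaks did not overlap and lay 107 bp apart. Elsewhere KO had a peak 36741 bp below the gene (276 bp, 53.09, 5.96), and KI had peaks 49090 bp (200 bp, 61.33, 19.8) and 5503 bp below it (311 bp, 50.17, 0.299). WT (359 bp, 50.86, 1.45) and KI (349 bp, 55.43, 9.52) shared a peak about 43 kb above the gene that KO lacked.

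Ccng2, which encodes a cyclin that slows the cell cycle, spans 93267573 to 93276231 on chromosome 5 (plus strand). Its start peak was the widest of the peaks in these windows in each list. It was 2012 bp wide in WT (93266709 to 93268720, score 303.68, percentile 95.1), 1885 bp in KO (93266802 to 93268686, 278.52, 95.4) and 2391 bp in KI (93266772 to 93269162, 373.95, 95.2). By width it stood at percentile 99.6 in WT and KO and 99.8 in KI. Upstream, inside the long non-coding RNA gene Gm42116 and about 27 kb from the start, a second peak was common to the lists, in WT of 683 bp (123.72, 64.2), in KO of 871 bp (190.11, 86.6) and in KI of 837 bp (230.66, 84.7). A narrow further one lay about 13 kb past the gene, in WT of 243 bp (84.68, 43.2), in KO of 209 bp (94.61, 55.3) and in KI of 197 bp (59.28, 16.5). All 3 regions present in WT were thus present in both mutants in the full lists. At equal list length the KI peak about 13 kb past the gene (59.28) was lost. KI alone had peaks 14158 bp (361 bp, 79.66, 40.5) and 47047 bp (326 bp, 66.77, 27.7) past the gene, the first of which was kept at equal list length.

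Irs2, an adaptor that carries insulin receptor signals to PI3K and so acts upstream of AKT as well as downstream of FoxO, spans 10984681 to 11008929 on chromosome 8 (minus strand). Its start lay under a peak in each list, and this peak also lay inside 9530052E02Rik, a long non-coding RNA gene of the opposite strand. The peak was 778 bp wide in WT (11008625 to 11009402, score 158.91, percentile 76.0), 1133 bp in KO (11008678 to 11009810, 184.42, 85.7) and 524 bp in KI (11008775 to 11009298, 317.63, 92.5). A peak 38 kb past the gene ranked above the start peak in WT and KI and just below it in KO. It was 886 bp in WT (10945676 to 10946561, 265.62, 92.4), 705 bp in KO (10945967 to 10946671, 177.35, 84.4) and 785 bp in KI (10945778 to 10946562, 409.37, 96.4), the highest score of any KI peak in the 9 windows. KI alone had a weak peak inside the gene (11001192 to 11001719, 528 bp, 66.21, 27.0).

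Pdk4, a kinase that turns off pyruvate dehydrogenase and so spares glucose, spans 5483351 to 5496278 on chromosome 6 (minus strand). It was the only member with no region common to the 3 lists. WT had a peak of 457 bp over the start (5496179 to 5496635, score 67.81, percentile 26.8). KO had none, and its nearest peak lay 53041 bp away. KI had a peak of 327 bp (5496560 to 5496886, 77.41, 38.5) that overlapped the WT one by 76 bp and began 282 bp upstream of the start. The 250 printed bases therefore lay under the WT peak and outside the KI peak, by 31 bp. The KI peak was lost at equal list length. Past the gene, by 40 kb, both mutants had a peak that WT lacked, of 400 bp in KO (5442738 to 5443137, 106.35, 62.2) and 390 bp in KI (5442656 to 5443045, 72.16, 33.5). The KO one stood at percentile 95.1 among KO peaks absent from WT. It was kept at equal list length, where the KI one was lost.

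Txnip, which binds thioredoxin and limits glucose uptake, spans 96557957 to 96561857 on chromosome 3 (plus strand) within the long non-coding RNA gene Gm15441. Its start and the forkhead core printed above lay under a peak in each list. The WT peak was 653 bp wide (96557522 to 96558174, score 91.67, percentile 48.3), the KO peak 335 bp (96557700 to 96558034, 54.2, 8.03) and the KI peak 542 bp (96557607 to 96558148, 143.45, 69.4). The KO peak lay wholly inside the other two, and it was dropped at equal list length. A second shared peak lay 2518 to 2716 bp past the gene, with 619 bp in WT (96564375 to 96564993, 132.04, 67.4), 523 bp in KI (90.44, 48.3) and 512 bp in KO (59.9, 18.4). The Txnip start peak was the lowest-ranked of the 7 start peaks that KO had at these genes. In WT only the start peak of Pdk4 (percentile 26.8) ranked lower. Any link between the forkhead core and these ranks was not tested.

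KO had a peak that no other list overlapped 17933 bp past Txnip (96579790 to 96580493, 704 bp, score 132.33, percentile 73.1). It lay inside Polr3gl, a gene for a subunit of RNA polymerase III that spans 96577872 to 96594181 on the minus strand. Of 2620 KO peaks that neither WT nor KI overlapped, this one scored highest. The next scored 118.87, the median was 60.43, and 37 scored 100 or more. The nearest KI peak was 2542 bp away and the nearest WT peak 2724 bp. Those neighbours formed 1 region just past the 3′ end of Polr3gl, with 391 bp in WT (96576675 to 96577065, 82.15, 41.0) and 975 bp in KI (96576273 to 96577247, 158.42, 73.0), and KO had no peak in it. The KI peak there stood at percentile 98.5 among KI peaks absent from KO.

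**Figure D3:**
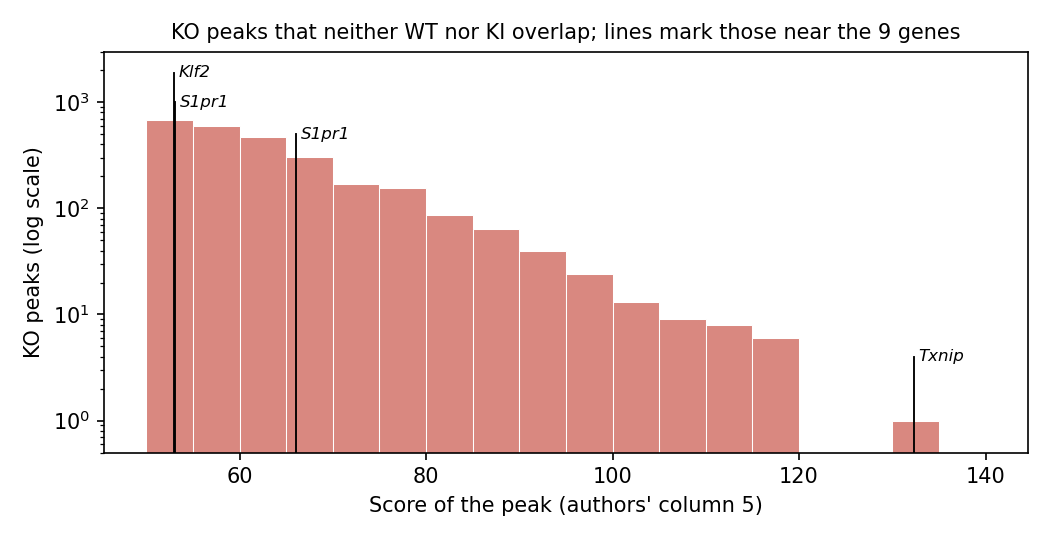
Scores (x axis) of the 2620 KO peaks that no WT or KI peak overlapped, as a histogram with a log count axis (y axis); black lines mark the 4 that lie in windows of the 9 genes. The peak near Txnip, at 132.33, is the highest of all, while those near Klf2 (52.94) and S1pr1 (53.09 and 66.09) lie at the low end.

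The Txnip window also held peaks of its neighbours. At the start of Polr3gl all lists had one, in WT of 867 bp (78.33, 37.8), in KO of 485 bp (112.41, 65.2) and in KI of 725 bp (188.41, 78.9). Another was shared where Lix1l, Ankrd34a and Gm52628 meet, in WT of 578 bp (52.4, 4.08), in KO of 639 bp (125.2, 70.6) and in KI of 502 bp (133.76, 66.9). KI alone had a peak 6354 bp upstream of Txnip (359 bp, 71.34, 32.6).

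**Figure D4:**
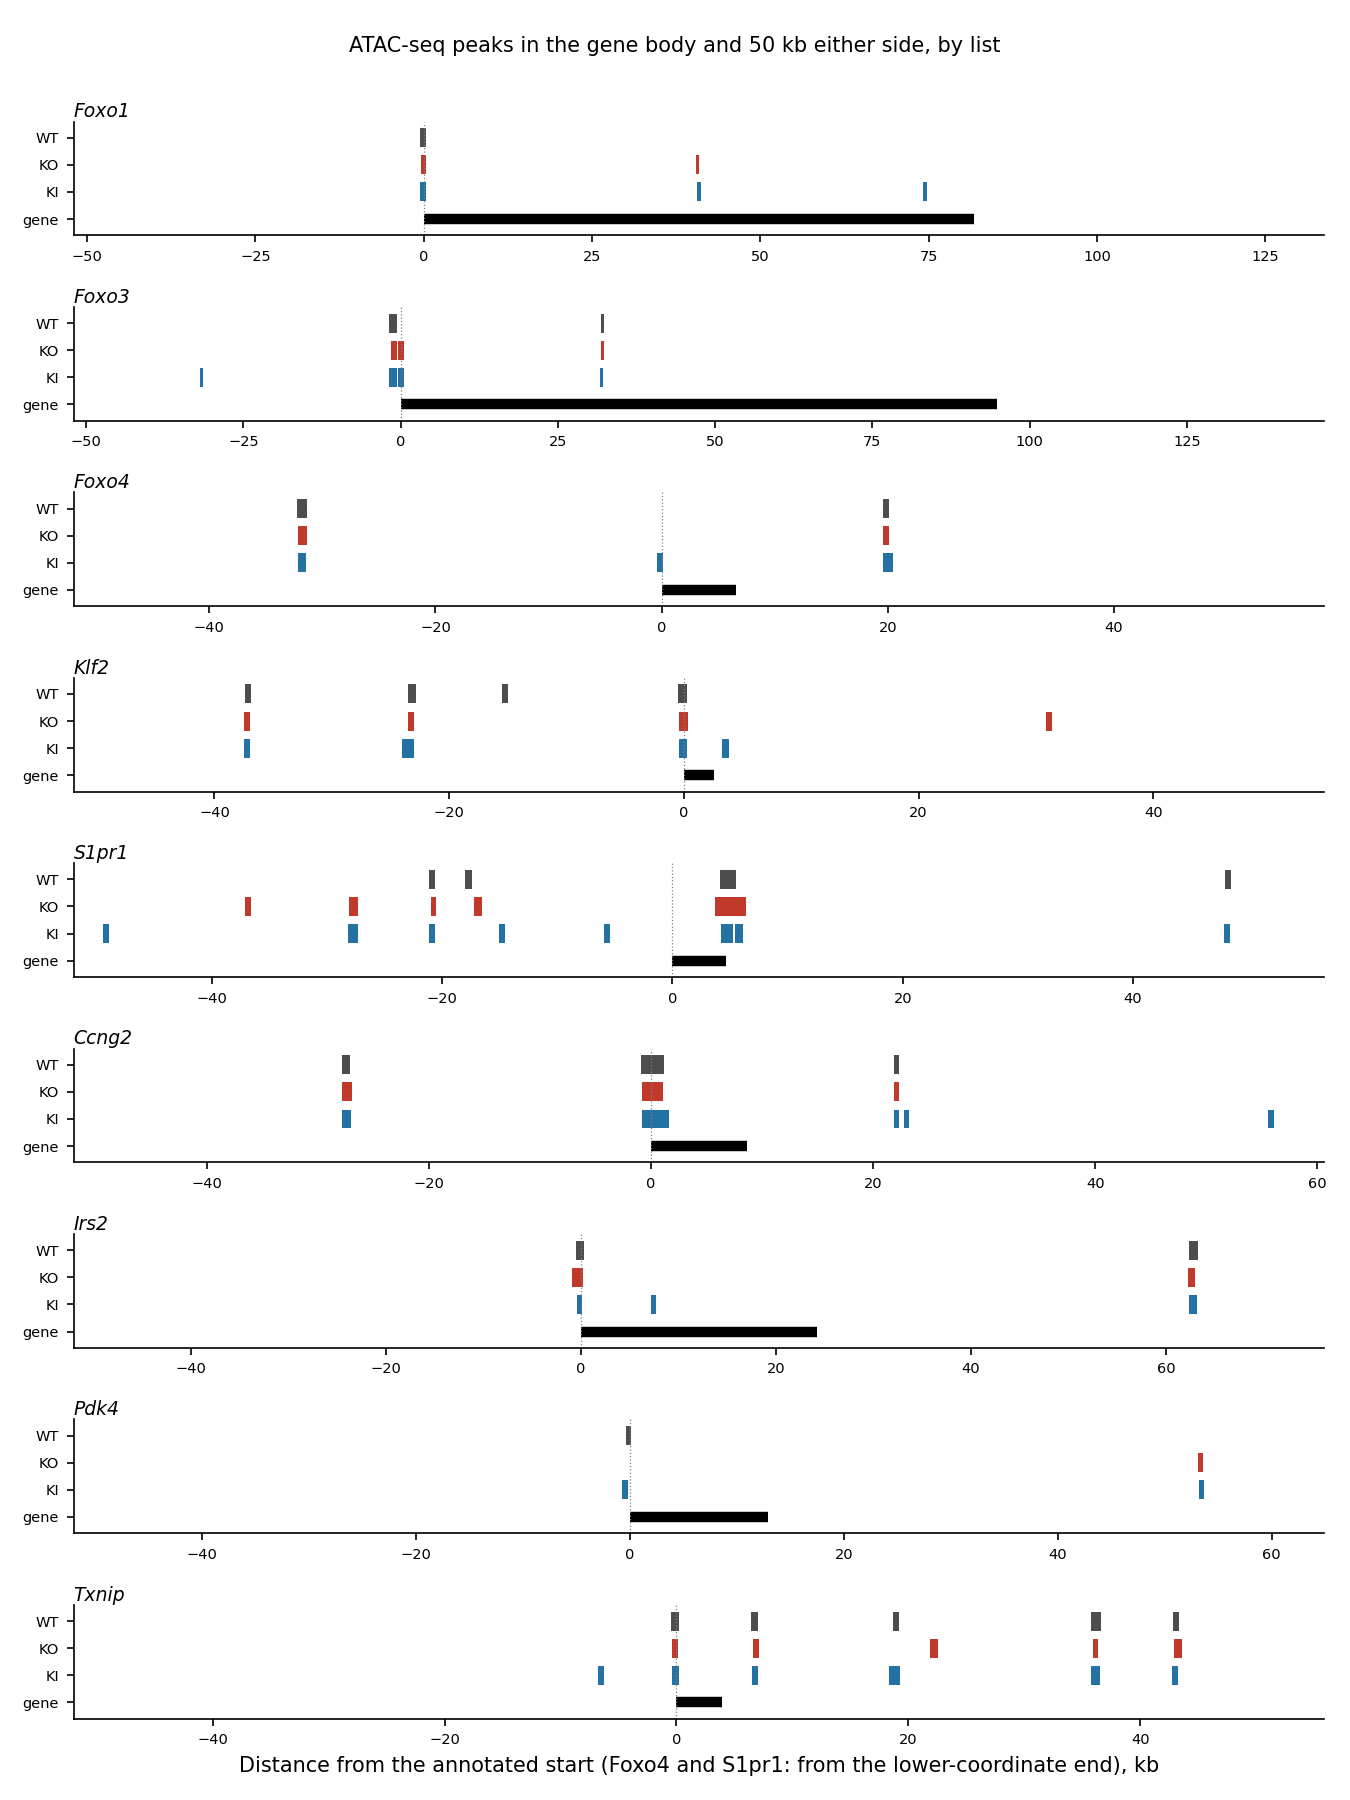
All peaks of the 3 lists in each gene body and 50 kb either side, with distance in kb on the x axis and 1 row per list above the gene (black); narrow peaks are drawn slightly wider than they are. Ccng2 shows the same 3 regions in all lists, Pdk4 shows none common to all 3, and S1pr1 shows many that a single list holds.

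Together the windows held 25 WT, 28 KO and 39 KI peaks. WT against KO sets floxed alleles with Cre, which deletes Mtor, against the same alleles without Cre. Of the WT peaks, 5 of 25 were absent from KO (20.0%, Wilson 95% interval 8.86 to 39.1), near S1pr1 (2), Klf2, Pdk4 and Txnip, against a background of 25.5% of all WT peaks. Of the KO peaks, 8 of 28 were absent from WT (28.6%, 15.3 to 47.1), against 32.4%. At equal list length the order of these shares turned, with 28.0% of the WT peaks (background 28.7%) and 21.7% of the KO peaks (background 28.7%). In the full lists the 5 WT peaks that KO lacked scored 50.86 to 82.15, and the 20 shared ones 52.4 to 303.68. There, no WT peak above 82.15 in these windows lacked a KO counterpart. This did not hold at equal list length, where the WT peak over the Txnip start (91.67) lost its KO counterpart (54.2). These intervals reflect counting error alone.

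WT against KI sets a floxed and a knock-in allele with Cre, which deletes the floxed one, against floxed alleles without Cre. The knock-in change, the loss of the floxed copy, Cre and any batch cannot be told apart here. This comparison shares the WT library with the first. KI lacked 2 of 25 WT peaks (8.0%, 2.22 to 25.0), one near Klf2 and one near S1pr1, against 13.1% of all WT peaks. WT lacked 16 of 39 KI peaks (41.0%, 27.1 to 56.6), against 46.5%. At equal list length the order turned, with 28.0% of the WT peaks absent from KI (7 of 25, background 24.6%) and 19.0% of the KI peaks absent from WT (4 of 21, background 25.3%). Of the 16 in the full lists, the S1pr1 peak (162.05) and the Foxo4 peak (95.73) had the highest scores, and the median was 66.49 against 143.45 for the 23 that WT shared.

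The last comparison sets the deleted against the knock-in genotype. KI lacked 4 of 28 KO peaks (14.3%, 5.7 to 31.5), near S1pr1 (2), Klf2 and Txnip, against 16.0% of all KO peaks. KO lacked 15 of 39 KI peaks (38.5%, 24.9 to 54.1), against 43.2%. The highest-scoring of these was the KI peak past the 3′ end of Polr3gl (158.42). Here too the order turned at equal list length, to 26.1% of KO peaks (6 of 23, background 24.7%) and 19.0% of KI peaks (4 of 21, background 25.5%). In all 6 directions, with full lists and at equal length, the whole list's value lay inside the interval around the share near these genes. These shares thus cannot be set apart from the background. With so few peaks the intervals are wide, so a difference that stays within them would not be seen.

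**Figure D5:**
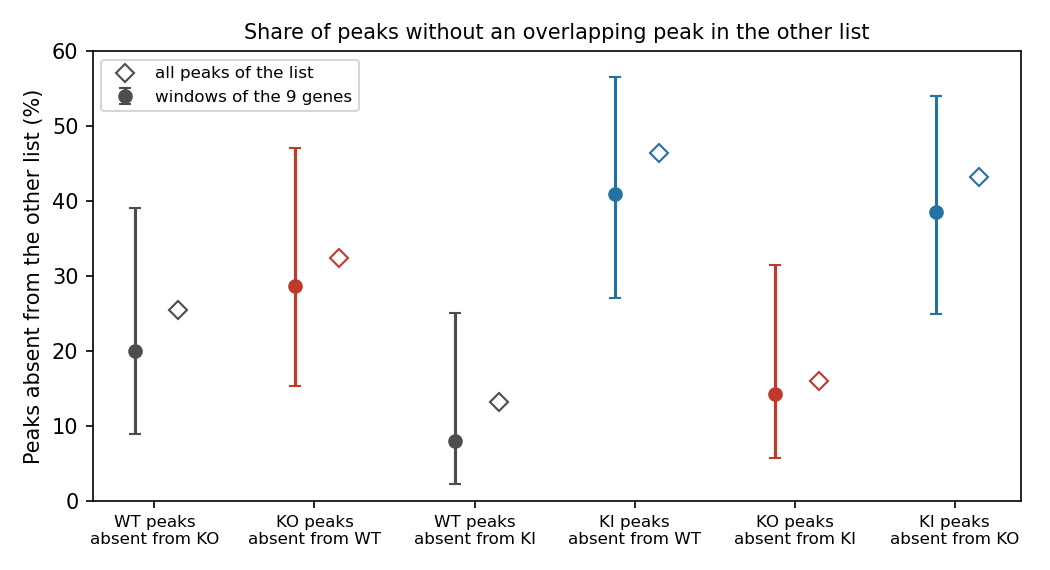
Percent of peaks (y axis) without an overlapping peak in the other list, for 6 directions (x axis) in the full lists: filled points are peaks in the windows of the 9 genes with Wilson 95% intervals, open diamonds all peaks of the list. Each diamond lies inside the interval beside it and slightly above the filled point.

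Merged over the lists the windows held 44 regions. A peak was present in all 3 lists in 19 of them (43.2%, 29.7 to 57.8), against 37.5% of 32764 regions in the genome. KI alone held 12 (27.3% against 29.3%), of which 2 were kept at equal list length, at Foxo4 and past Ccng2. KO and KI without WT held 4 (9.09% against 10.7%), by the Foxo3 start, inside Foxo1, below S1pr1 and past Pdk4. At equal list length the peaks of both mutants inside Foxo1 were lost, and so was the KI peak past Pdk4. KO alone held 4 (9.09% against 7.99%), WT with KI 3 (6.82% against 7.71%), WT alone 2 (4.55% against 5.52%) and WT with KO 0 (0.0% against 1.31%), each close to its share of all regions.

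The rest of the pathway was described by a list of 69 genes, 29 regulators and cofactors of FoxO factors and 40 other targets. A peak within 1 kb of the start was present at 52 of them in WT, 52 in KO and 55 in KI. Over all protein-coding genes the shares were 45.5%, 45.3% and 52.7%. Of the 69 genes, 50 had one in all 3 lists. KO lacked 2 of the 52 WT ones (3.85%, against the background of 10.3% given above) and had 2 of the 17 that WT lacked (11.8% against 8.36%). KI lacked 0 of 52 (background 2.93%) and had 3 of 17 (17.6% against 15.7%).

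Rictor and Sgk3 had a start peak in WT and KI and none in KO. Rictor, the subunit that defines mTORC2, had one in WT (58.38, 13.9) and one in KI (108.73, 57.8), and so had Sgk3, a kinase related to AKT, in WT (86.5, 44.6) and KI (82.41, 42.6). The genes with a peak in both mutants and none in WT were Tnfsf10, which encodes the death ligand TRAIL (94.48 and percentile 55.2 in KO, 85.39 and 44.9 in KI), and Map1lc3b, an autophagosome protein (56.34 and 11.9 in KO, 91.21 and 48.7 in KI). Cdkn1a, which encodes the cell cycle inhibitor p21, had a weak one in KI alone (52.27, 4.11). No list had a start peak at 2 of the 29 regulators and cofactors and 12 of the 40 other targets. The matching share over all genes is not given here. Genes of this kind, named after their values were seen, included the regulator Ywhaz and these targets: the lymphoid genes Il7r, Ccr7, Ctla4, Fasl, Rag1 and Rag2, the metabolic genes Pck1, G6pc and Ppargc1a, the muscle gene Trim63, and Ccnd1.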

How the data were processed

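ATAC-seq peaks of 3 libraries were used, 1 each for WT, KO and KI HSC; per the labels' protocols 50000 cells entered a transposition of 30 min at 37 °C. Each library took its group from its title. The 12 RNA-seq samples were not analysed here. Each deposited file held 5 columns without a header, with a score per peak in column 5 that the authors deposited under MACS peak names, so peaks were called per library. Per the submitters' processing notes, mm10 was the build and CASAVA a tool. Not given in the sources used here were the aligner, MACS version, duplicate handling, transposase shift, control and filters, and depth is unknown.

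A peak counted as absent where no peak of the other list overlapped it by at least 1 bp (bedtools 2.31.1). Regions were merged where peaks overlapped or touched. Genes, starts and promoter sequences came from RefSeq tables of GRCm38.p6, and all 69 pathway genes were matched. Coordinates are 1-based. Wilson intervals came from statsmodels 0.14.6. The overlap code was tested on simulated data with known answers. Alternatives were equal list length, a score of 100 or more, a 10 kb flank, 50% of the peak covered, 500 and 2500 bp start windows and a longer motif. Members, all their peaks, and neighbours with a gene end within 1 kb of a peak were named; Eps15l1, Gm42116 and Gm15441, whose bodies hold a peak, were added. Pathway genes that differed from WT were named, up to 10. Members and lists were chosen with earlier results of these data known. Some genes of the lists are not reported here by name.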

Additional observations from a re-analysis of the deposited data

How the results depend on the processing

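Of 67 values computed under an alternative, 51 stayed within 1.5 times the count or within the interval given above, and 16 moved. At equal list length, WT peaks absent from KI made up 28.0%, KI peaks absent from WT 19.0%, KI peaks absent from KO 19.0%, and pathway genes lost in KI numbered 1. KO peaks absent from KI went from 14.3% to 26.1%, and in each of the 3 pairs of lists the order of the 2 shares turned. At that length the whole lists gave nearly equal shares in each pair (28.7% and 28.7%, 24.6% and 25.3%, 24.7% and 25.5%). The WT list was not cut, so its absent shares could only stay or rise. With scores of 100 or more, KI peaks absent from KO made up 20.0%, WT peaks absent from KI 27.3%, members with a WT start peak numbered 5, and pathway genes numbered 10 gained in KI, 0 gained in KO and 1 lost in KI. With a 10 kb flank, 0.0% of KO peaks and 0.0% of WT peaks were absent from KI (0 of 12 and 0 of 10 peaks). Chosen after the data were seen, counting either gene end gave 4 pathway genes lost in KO, 5 gained in KO and 6 gained in KI, and the motif TGTTTTG was in 2 members. The pathway counts in this paragraph stand without a share over all genes at the same setting. They therefore show only that the counts depend on the setting. Read depth, which is unknown, limits how far an absent peak can be read as closed chromatin. No paired analysis was possible because each genotype has 1 ATAC-seq library and no replicate numbers to pair. For the same reason no replicate could be left out.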

Other observations

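Of the 7 regions at the end of a neighbouring gene, 5 had a peak in all 3 lists, while the one at Gm10282 was in WT alone and the one past the 3′ end of Polr3gl in WT and KI. On chromosome X, where Foxo4 had a peak in KI alone, its neighbours had one in each list. Snx12 had a pair of WT peaks at its start (101222156 to 101222447, 292 bp, score 58.72, percentile 14.5, and 101222456 to 101222794, 339 bp, 124.34, 64.4). There KO (101222081 to 101222898, 818 bp, 157.92, 80.2) and KI (101222058 to 101222781, 724 bp, 187.54, 78.7) each had a single peak across both. The start of Med12 lay under a peak in WT of 421 bp (83.18, 41.9), in KO of 396 bp (144.95, 77.0) and in KI of 819 bp (159.11, 73.1). The number of peaks in a member's window ran from 1 to 5 in WT, 1 to 6 in KO and 2 to 8 in KI, with medians of 3, 3 and 4 against 2, 2 and 3 over all genes. S1pr1 had more peaks around it than most genes (percentile 88.5 in WT, 97.0 in KO and 96.2 in KI), while Pdk4 was near the middle (43.3, 40.9 and 43.8).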
